A study of Mus musculus with 7 samples.

Results

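The mRNAs of 9 genes that make glucose in the liver or decide how it is used were followed in fasted livers: Pck1, G6pc, Fbp1, Pcx, Slc2a2, Pklr, Pfkfb1, Pdk4 and Pdk2. They were found by gene name among the probes of the arrays that are not controls, where 10 of 55681 probes carry one of these names, 1 for each gene and 2 for Pdk2. All 9 genes were among the 20002 genes that could be tested. Livers came from 3 WT mice and 4 SHIVA mice, all female C57BL/6 mice aged 8 to 12 weeks that had gone without food for 24 h, and each liver had a single-colour Agilent array of its own. SHIVA mice carry a point mutation of Sox17 that came from mutagenesis with ENU (N-ethyl-N-nitrosourea) and that exchanges a methionine for an arginine in the HMG domain, the part of this transcription factor that holds DNA. The living mutants were all heterozygous per the methods, and the line was kept by crossing SHIVA males to females of the parent strain. The mutation is present in every cell of the mouse and not in hepatocytes alone, so that a difference between the livers need not start in the liver. No fed livers were among the arrays, so each value below is a level after fasting and not a response to it.

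During a fast the liver first spends its glycogen and then builds glucose from lactate, glycerol and amino acids. Carbon enters this route in the mitochondrion and leaves it as free glucose, and each step of glycolysis that runs only one way is bypassed by an enzyme of its own. At the same time pyruvate is kept away from oxidation, since the kinases of the pyruvate dehydrogenase complex switch that complex off while fatty acids supply the energy. Glucagon, glucocorticoids and low insulin drive the genes that make glucose, among them Pck1, whereas Pklr is known as a gene of the fed liver and Pdk4 as a gene that fasting and PPARα, the receptor that senses fatty acids, induce.

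The sequences of 4 promoters are shown because these genes stand for the sides of the pathway that the values below compare: Pck1 and G6pc for the making of glucose, Pklr for its use and Pdk4 for the gate to oxidation. Each is the stretch of 250 bases just upstream of a start of transcription in the mouse genome (RefSeq, GRCm38.p6), written 5′ to 3′ on the strand of the gene. Capitals mark matches on either strand to 7 short motifs, which were the FoxO site GTAAACA, the short cAMP response element TGACG, the full cAMP response element TGACGTCA, the nuclear receptor motif AGGTCA, the E box CACGTG, the Sox core ACAAT and the TATA box TATAAA. The short element lies inside the full one, so the same letters could count for both.
Pck1, chr2:173152823-173153072, plus strand: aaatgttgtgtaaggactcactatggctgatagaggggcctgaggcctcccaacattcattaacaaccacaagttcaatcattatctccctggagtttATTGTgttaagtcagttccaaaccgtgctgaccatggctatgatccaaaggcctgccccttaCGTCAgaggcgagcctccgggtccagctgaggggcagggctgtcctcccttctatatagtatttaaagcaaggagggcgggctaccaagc
G6pc, chr11:101367466-101367715, plus strand: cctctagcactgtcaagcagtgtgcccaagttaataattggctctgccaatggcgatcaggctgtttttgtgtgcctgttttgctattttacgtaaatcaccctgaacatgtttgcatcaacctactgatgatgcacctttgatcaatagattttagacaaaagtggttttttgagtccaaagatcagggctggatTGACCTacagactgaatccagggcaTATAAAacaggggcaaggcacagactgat
Pklr, chr3:89136373-89136622, plus strand, the downstream of its 2 starts: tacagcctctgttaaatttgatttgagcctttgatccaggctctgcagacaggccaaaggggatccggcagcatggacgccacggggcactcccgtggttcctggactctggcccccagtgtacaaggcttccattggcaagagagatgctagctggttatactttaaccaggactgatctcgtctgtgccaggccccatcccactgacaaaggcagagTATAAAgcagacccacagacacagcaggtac
Pdk4, chr6:5496279-5496528, minus strand: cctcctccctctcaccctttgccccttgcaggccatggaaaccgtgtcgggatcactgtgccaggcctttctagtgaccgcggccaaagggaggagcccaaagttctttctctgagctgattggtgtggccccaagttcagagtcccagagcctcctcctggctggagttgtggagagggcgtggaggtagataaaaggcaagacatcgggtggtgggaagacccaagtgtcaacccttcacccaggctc

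In Pck1 the capitals are a Sox core on the opposite strand, whose letters begin 152 bases before the start, and a short cAMP response element, which begins 90 bases before it. In G6pc they are a nuclear receptor motif that begins 54 bases before the start and a TATA box that begins 29 bases before it. The downstream start of Pklr has a TATA box that begins 31 bases before it and no other match, and the window of Pdk4 holds none of the 7 strings of letters. The 9 genes have 15 such windows in RefSeq. Of these, 4 held the nuclear receptor motif (in G6pc, Pklr, Slc2a2 and Pfkfb1), against 14.0% of 32851 windows of all genes. The Sox core was in 3 of the 15 windows (Pck1, Pcx and Pklr), against 27.7% of all windows, and the TATA box in 3 (G6pc, Pklr and Pfkfb1), against 12.4%. The E box was in 2 windows (Pcx and Pdk2), against 6.02%, and the short cAMP response element in 1, against 17.8%. The FoxO site and the full cAMP response element were in 0 of the 15 windows, and 3.17% and 1.55% of all windows held them. These are matches of letters and say nothing about binding in these livers.

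The arrays themselves read each mRNA through probes of 60 bases. Of the 10 probes, 9 lie on a single stretch of the genome (mm9, as the array files give it), while the probe of Pklr spans 519 bases, chr3:88948907-88949425, and so crosses a splice junction. Its sequence, on the strand of the mRNA, is shown because it is the part of the Pklr message that the Pklr values below measure.
Pklr probe: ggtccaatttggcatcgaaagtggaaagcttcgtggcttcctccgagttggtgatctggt

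The values are log2 signals after quantile normalization over the 7 arrays, and a difference of 1 is a doubling. All 10 probes were well above background on 7 of 7 arrays, and no spot of them was saturated. The genotypes were compared by limma over all 20002 genes, and a gene counted as called if its p, adjusted by the method of Benjamini and Hochberg, was under 0.05. Log2 fold changes are those of SHIVA against WT livers and stand beside their standard error (SE). With 7 arrays, their number sets how precise each value can be. All 7 arrays lay on 1 slide and were read in 1 scan, with WT livers in row 1 and SHIVA livers in row 2, so position and genotype cannot be told apart. The 6 hepatocyte markers were well above background on all arrays, and their summed signal overlapped between WT (873295 to 944286) and SHIVA livers (864646 to 948906). Alb and Serpina1a, the brightest (WT means 18.30 and 18.18), weigh most in this sum. Quantile normalization gives the brightest probes much the same values on each array, and Alb was 18.2841 in both WT replicate 3 and SHIVA replicate 1. The overlap of this sum therefore cannot show whether the livers held equal amounts of hepatocyte mRNA. Taken singly, Ttr was lower in every SHIVA liver (-0.32, adjusted p = 0.363, limma). The other hepatocyte markers overlapped, the largest difference among them being that of Tat (0.38, adjusted p = 0.433). Markers of other organs that could be carried along, Prss1, Pnlip and Cpa1 of the pancreas, Cfd and Plin1 of fat, Umod and Kap of the kidney and Vil1 and Sis of the intestine, were not well above background on any array. Of the remaining markers on these lists, Cela1 of the pancreas and Adipoq of fat were so on 1 array each, and Slc34a1 of the kidney (-0.33, adjusted p = 0.686) and Fabp2 of the intestine (-0.73, adjusted p = 0.286) on 7 of 7, with overlapping groups. In whole liver, fewer cells of a type and less mRNA per cell cannot be told apart. Sox17 itself was dim, with 3.95 ± 0.56 (SD, n = 3) among WT livers against 4.64 ± 0.13 (SD, n = 4) among SHIVA livers and an overlap between them (adjusted p = 0.279, limma), and since the mutation is a point mutation this level does not check the labels.

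None of the 9 genes passed the threshold between WT and SHIVA livers, where 0.375% of all genes tested were called. Along the route that makes glucose, Pck1, G6pc and Pcx overlapped between the groups, and Fbp1 was higher in each SHIVA liver than in any WT liver, by a mean of 1.31-fold. Among transcripts that serve the use of glucose or the gate to oxidation, Pdk4, Pklr and Pfkfb1 were lower in each SHIVA liver than in any WT liver, by means of 2.83-fold, 1.74-fold and 1.44-fold, whereas Pdk2 overlapped. SHIVA livers lay wholly below WT livers for 3 of the 9 genes, against 6.02% of all genes tested, and wholly above for 1 of 9, against 6.14%. The unadjusted p was under 0.05 for the same 4 genes, which held for 13.3% of all genes tested, and the methods' t-test called 0 genes of the whole array after adjustment. The smallest adjusted p among the 9 was 0.189, for Pdk4. The median log2 fold change of the 9 genes was 0.0085, beside -0.0074 over all genes tested.

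**Figure D1:**
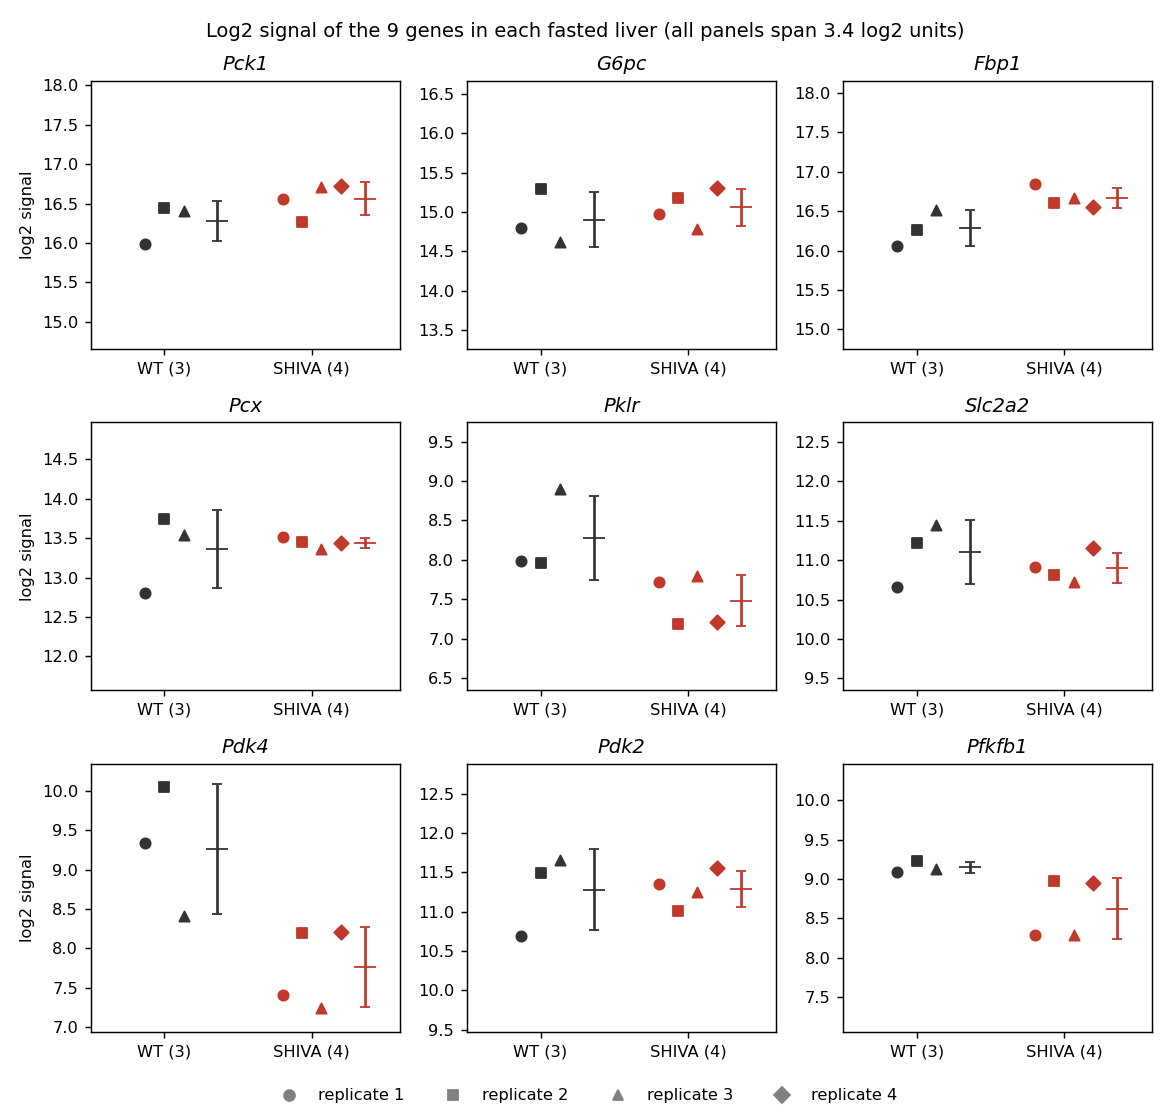
Log2 signal (y axis, quantile normalized) of each gene in the 3 WT (black) and 4 SHIVA (red) fasted livers, 1 point per mouse with symbols for the replicate number and a bar for the mean ± SD; every panel spans the same 3.4 log2 units. Fbp1 in SHIVA livers lies above 16.52, the highest WT value, and Pdk4, Pklr and Pfkfb1 in SHIVA livers lie below the lowest WT value.

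Pck1, the enzyme that commits oxaloacetate to gluconeogenesis, was read by a probe at chr2:172984307-172984366. Its log2 signal was 15.98, 16.44 and 16.41 in WT livers and 16.55, 16.26, 16.71 and 16.72 in SHIVA livers. WT replicate 1 was the lowest of the 7 livers, and SHIVA replicate 2 lay between it and the other WT livers, so the groups overlapped. SHIVA exceeded WT livers by 0.28 on the log2 scale (SE 0.18, adjusted p = 0.555, limma), and its 95% interval reached from 0.913-fold to 1.62-fold, while the log2 value was 0.14 without WT replicate 1. G6pc, the catalytic subunit of the phosphatase that releases free glucose (chr11:101238947-101239006), measured 14.80, 15.29 and 14.61 in WT and 14.97, 15.17, 14.78 and 15.31 in SHIVA livers. The livers of both groups were interleaved over nearly the same range. The means differed by a log2 value of 0.16 (SE 0.21, adjusted p = 0.795), with an interval from 0.804-fold to 1.55-fold, and this value was 0.35 without WT replicate 2 and 0.013 without WT replicate 3. Differences within that interval could not be seen with these arrays for the last step of the pathway.

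Fbp1, the bisphosphatase that takes gluconeogenesis around the phosphofructokinase step, was the only one of the 9 genes with higher values in all SHIVA livers. Its probe at chr13:62966175-62966234 measured 16.06, 16.26 and 16.52 in WT and 16.84, 16.61, 16.67 and 16.56 in SHIVA livers. The gap between the groups was narrow, since WT replicate 3 came close to SHIVA replicate 4. On the log2 scale SHIVA livers were higher by 0.39 (SE 0.16, adjusted p = 0.344), and its 95% interval, from 1.02-fold to 1.68-fold, did not include equality although the adjusted p was far from the threshold. Pcx, pyruvate carboxylase, which brings pyruvate into the route inside the mitochondrion (chr19:4621610-4621669), measured 12.80, 13.74 and 13.54 in WT and 13.52, 13.45, 13.36 and 13.44 in SHIVA livers. The 4 SHIVA livers were close together (SD 0.065), and the WT livers lay on both sides of them (SD 0.49). The fold change was close to none, at a log2 value of 0.084 (SE 0.22, adjusted p = 0.909), and its direction turned to -0.20 without WT replicate 1, the liver with the lowest value.

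Slc2a2, the glucose carrier of the hepatocyte surface also known as GLUT2, carries glucose both ways across the membrane. Its probe (chr3:28627016-28627075) measured 10.65, 11.21 and 11.44 in WT and 10.91, 10.82, 10.72 and 11.16 in SHIVA livers. The WT livers held both the lowest and the highest value. The log2 fold change was -0.20 in SHIVA livers (SE 0.21, adjusted p = 0.739), with an interval from 0.623-fold to 1.21-fold, and the value was -0.43 without WT replicate 1 and -0.034 without WT replicate 3.

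Pklr encodes the pyruvate kinase of the liver, which completes glycolysis and whose mRNA is known to be high after feeding. Through the probe shown above it measured 7.99, 7.96 and 8.90 in WT and 7.72, 7.19, 7.80 and 7.21 in SHIVA livers. All SHIVA livers were below all WT livers, but WT replicates 1 and 2 were close to SHIVA replicates 1 and 3, and WT replicate 3 stood alone at the top. Pklr thus differed by a log2 value of -0.80 (SE 0.27, 95% interval -1.43 to -0.18, adjusted p = 0.262), and -0.49 without WT replicate 3. After normexp background correction the value of Pklr was -0.58. Pfkfb1 encodes the hepatic form of the double enzyme that makes and breaks down fructose bisphosphate of the signalling kind, the activator of glycolysis and brake on Fbp1. Its probe (chrX:147078320-147078379) measured 9.09, 9.23 and 9.12 in WT and 8.29, 8.97, 8.29 and 8.94 in SHIVA livers. The WT livers were tight (SD 0.074), whereas the SHIVA livers formed a lower pair, replicates 1 and 3, and a higher pair, replicates 2 and 4, just under the WT range. Between the means lay a log2 fold change of -0.52 (SE 0.21, 95% interval -1.01 to -0.034, adjusted p = 0.343).

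Pdk4, the pyruvate dehydrogenase kinase that fasting is known to induce, had the largest difference of the 9 genes. Its probe (chr6:5433441-5433500) measured 9.34, 10.04 and 8.41 in WT and 7.41, 8.20, 7.24 and 8.21 in SHIVA livers. SHIVA replicates 2 and 4 were just below WT replicate 3, while SHIVA replicates 1 and 3 were further down, the same split into pairs as in Pfkfb1. Pdk4 had a log2 fold change of -1.50 (SE 0.40, 95% interval -2.41 to -0.58), and the adjusted p was 0.189 in limma (unadjusted p = 0.00506). The call depended on 1 liver. Without WT replicate 3 the log2 fold change was -1.93 and the adjusted p 0.0414, which made Pdk4 the single gene of the 9 to pass, in a comparison of 2 WT and 4 SHIVA livers that called 416 genes instead of 75.

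Pdk2, the kinase of the same complex that is present in most tissues in any state of feeding, had a pair of probes. The brighter one (chr11:94887669-94887728) measured 10.69, 11.49 and 11.66 in WT and 11.35, 11.01, 11.25 and 11.55 in SHIVA livers. The other (chr11:94887980-94888039) measured 9.85, 10.51 and 10.81 in WT and 10.43, 10.06, 10.41 and 10.61 in SHIVA livers. Both put the 7 livers in the same order, with WT replicate 1 lowest and WT replicate 3 highest. Their log2 fold changes were 0.0085 (SE 0.25, adjusted p = 0.992) and -0.014 (SE 0.24, adjusted p = 0.988 with probes tested singly), so they have no settled direction, and the interval of the first ran from 0.679-fold to 1.49-fold.

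**Figure D2:**
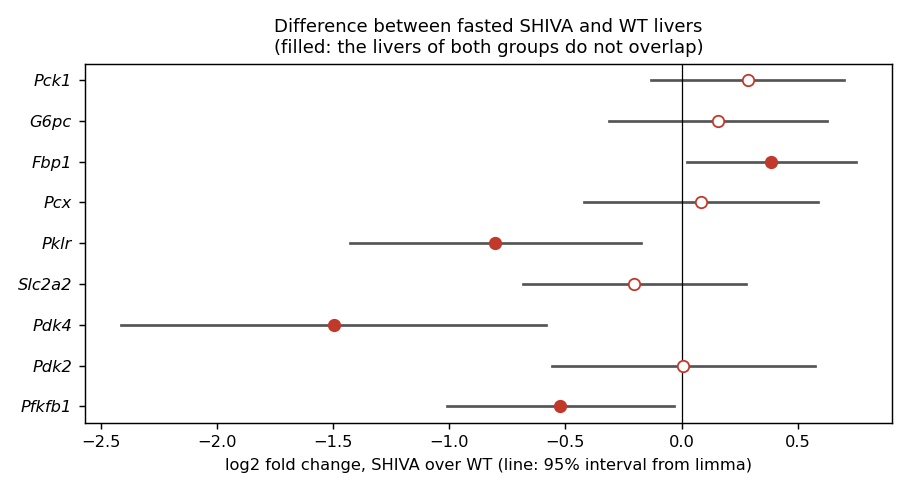
Log2 fold change of SHIVA over WT livers (x axis) for the 9 genes, as points with 95% intervals from limma; filled points mark genes whose 3 WT and 4 SHIVA livers do not overlap. The intervals of Pdk4 (-2.41 to -0.58), Pklr, Pfkfb1 and Fbp1 leave out 0 before adjustment over all genes, and those of the other genes include it.

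Across the 7 livers some of the 9 genes ran together. Pdk4 and Pfkfb1 had a Pearson correlation of 0.86, Slc2a2 and Pdk2 of 0.87 and Pcx and Pdk2 of 0.81, while Fbp1 ran against Pdk4 (-0.87) and Pfkfb1 (-0.74), and G6pc against Pklr (-0.74). These are descriptions over 7 livers that share a slide and differ in genotype, and they were picked from all pairs of the 9 genes. WT replicate 1 was the lowest WT liver for 6 of the 9 genes, whereas it was lowest for 34.9% of all genes. The WT livers also varied more among themselves in these genes than in others, with a median SD of 0.40 against 0.25 over all genes tested, which the SHIVA livers did not (0.23 and 0.23).

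The genes whose signal followed that of Pdk4 most closely over the 7 livers were Baiap2l1 (r = 0.999), Ormdl3 (0.994) and Cyp4a14 (0.991), a fatty acid hydroxylase known as a target of PPARα. For Pck1 they were Lrrc27 (0.990), 1700097N02Rik (0.982) and Sohlh2 (0.979), and for Pklr the transcript ENSMUST00000085586 (0.989), Cog4 (0.968) and Gm16483 (0.964). These names were picked as the closest of 20002 genes over only 7 livers and are a description.

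The wider pathway was read from lists of 95 other genes, of which 89 were tested and 0 called. Of the 89, 46 had a higher and 43 a lower mean in SHIVA livers, 18 had an unadjusted p under 0.05 (13.3% of all genes), and 8 lay wholly above (6.14%) and 6 wholly below WT livers (6.02%). Their median log2 fold change was 0.031. The lists were written with earlier results of these data known and are described without a test of their own.

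Of the genes that feed or run gluconeogenesis, 24 of 26 were tested, 7 with higher and 17 with lower means in SHIVA livers and a median of -0.069. The largest differences were Sds (0.56, adjusted p = 0.238, limma), the serine dehydratase that turns an amino acid into pyruvate, Gpt2 (-0.56, adjusted p = 0.173), the mitochondrial alanine aminotransferase, and Gpd1 (-0.44, adjusted p = 0.445), the glycerol phosphate dehydrogenase. Sds measured 13.76, 14.13 and 14.42 in WT and 14.80, 14.66, 14.56 and 14.65 in SHIVA livers. Gpt2 measured 12.96, 13.22 and 13.01 in WT and 12.52, 12.55, 12.36 and 12.60 in SHIVA livers. So Sds and Gpt2 stood apart in opposite directions, while Gpd1 overlapped, as did the other aminotransferases of the list, Got1 (0.32), Got2 (0.15) and Gpt (-0.082), which were chosen after their values were seen. Pck2 and Fbp2, the other forms of Pck1 and Fbp1, were not well above background on any array.

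Of 18 regulators, 15 were tested, 8 with higher and 7 with lower means and a median of 0.031. Ppara, the gene of PPARα, measured 12.19, 12.61 and 12.33 in WT and 11.66, 11.75, 11.64 and 11.78 in SHIVA livers, which makes a difference of -0.67 (SE 0.15, adjusted p = 0.132, limma). Sik1, a kinase that restrains the cAMP response, measured 5.38, 6.16 and 5.34 in WT and 6.58, 7.43, 6.55 and 6.67 in SHIVA livers, which makes a difference of 1.18 (SE 0.28, adjusted p = 0.147). Neither gene overlapped between the groups. The log2 fold change of Sik1 was 0.87 with the mean signal and 0.68 after normexp background correction. Cebpa, a transcription factor of the hepatocyte, overlapped at -0.44 (adjusted p = 0.439). Ppargc1a, the coactivator through which glucagon raises the gluconeogenic genes, was not among the largest differences but varied widely in SHIVA livers, where it measured 8.67, 6.62, 8.80 and 9.29 beside 7.68, 8.02 and 8.39 in WT livers. It is named here after its values were seen.

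Around the pyruvate dehydrogenase complex 11 of 12 genes were tested, 3 with higher and 8 with lower means and a median of -0.12. Pdp2, a phosphatase that switches the complex on again, measured 10.30, 10.76 and 10.44 in WT and 9.82, 9.54, 9.64 and 9.98 in SHIVA livers, a difference of -0.75 (SE 0.17, adjusted p = 0.138, limma). It passed the threshold with the authors' table (adjusted p = 0.0439) and with the mean spot signal (adjusted p = 0.0441), where its log2 fold change was -0.77. Both settings rank the spots of each array alike, so they are not separate results. Over all alternatives the adjusted p of Pdp2 ranged from 0.0439 to 0.367. Pdk1, another kinase of the complex, measured 8.65, 8.19 and 8.37 in WT and 7.91, 8.02, 7.78 and 7.92 in SHIVA livers, a difference of -0.50 (SE 0.16, adjusted p = 0.233). So a phosphatase as well as the kinases Pdk4 and Pdk1 had lower values in every SHIVA liver. Pdp1, the other phosphatase of the complex, overlapped at 0.45 (adjusted p = 0.375).

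For glycolysis and sugar entry all 20 genes were tested, 15 with higher and 5 with lower means and a median of 0.11. Of these, 1 lay wholly above WT livers (6.14% of all genes) and 1 wholly below (6.02%). The gene below was Khk, ketohexokinase (-0.50, adjusted p = 0.217, limma), which is named here after its values were seen. Hk3, a hexokinase of white blood cells, differed by 1.17 (SE 0.44, adjusted p = 0.300, limma) and overlapped, with 6.72, 6.29 and 8.13 in WT and 8.43, 8.49, 8.47 and 7.47 in SHIVA livers. Pfkp, the platelet form of phosphofructokinase, did not overlap (0.71, SE 0.19, adjusted p = 0.197). The value of Pfkp was 0.47 with the mean signal, 0.34 after normexp background correction and 0.54 with the mean of its probes. Hk2, the hexokinase of muscle and fat, overlapped (0.69, adjusted p = 0.477). Hk2 was dim, well above background in 1 of 3 WT and 3 of 4 SHIVA livers, and its log2 fold change was 0.17 with the mean signal and 0.16 after normexp background correction. Markers of blood and resident immune cells have to be set beside Hk3, Pfkp and Hk2. The summed signal of the 4 Kupffer cell markers was 12270 to 27669 in WT and 17764 to 43405 in SHIVA livers, and that of the 3 neutrophil markers on the array was 305 to 1072 and 238 to 1709. SHIVA replicate 4 was the lowest SHIVA liver in both, as it was for Hk3. WT replicate 3 was the highest WT liver for Hk3 and for the Kupffer cell sum but the lowest for the neutrophil sum. The summed signal of the red cell markers on the array, Hba-a1 and Alas2, was 43781 to 61699 in WT and 54003 to 100423 in SHIVA livers, and Alas2 alone was higher in every SHIVA liver (0.63, adjusted p = 0.238). The part of such cells in these values was not tested.

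Of the glycogen genes all 19 were tested, 13 with higher and 6 with lower means and a median of 0.15, and 4 lay wholly above WT livers (6.14% of all genes) and 0 below (6.02%). The largest differences were in the glycogen targeting subunits of protein phosphatase, which bring the phosphatase to glycogen and favour its synthesis. Ppp1r3g measured 4.69, 5.39 and 5.10 in WT and 5.89, 6.97, 5.96 and 8.04 in SHIVA livers, a difference of 1.66 (SE 0.49, adjusted p = 0.225, limma). The groups did not overlap, and the SHIVA livers differed among themselves more than the WT livers did. The log2 fold change of Ppp1r3g was 1.13 with the mean signal, 0.84 after normexp background correction and 1.22 without SHIVA replicate 4. Ppp1r3c (1.13, adjusted p = 0.361) and Ppp1r3b (0.55, adjusted p = 0.279) overlapped.

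**Figure D3:**
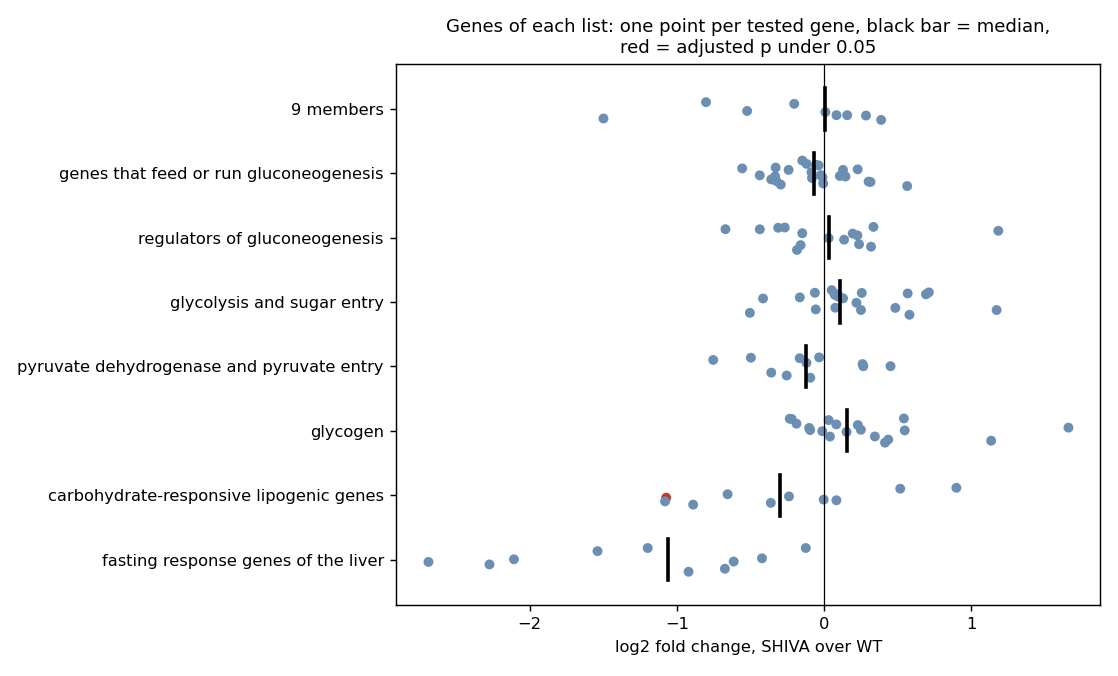
Log2 fold change of SHIVA over WT (x axis) for each tested gene of the 9 genes and of 7 further lists (y axis), with a black bar at the list median and red for an adjusted p under 0.05. The medians of the first 6 lists lie between -0.12 and 0.15, and 1 gene, Me1 among the carbohydrate-responsive genes, passed.

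Pdk4 and Pklr also belong to wider programmes, the fasting response and the response to carbohydrate, and their companions there were read for context. All 10 fasting response genes had lower means in SHIVA livers, with a median log2 fold change of -1.06, and 5 of them lay wholly below WT livers (6.02% of all genes) and 9 had an unadjusted p under 0.05 (13.3%), but 0 were called. The largest were Acot1 (-2.69, adjusted p = 0.204, limma), Cyp4a14 (-2.27, adjusted p = 0.164) and Fgf21 (-2.11, adjusted p = 0.250), and the value of Pdk4 lay within the range of the list. Cyp4a14 did not overlap between the groups. Acot1 and Fgf21 did, since WT replicate 3 (9.65 and 4.57) lay within the range of the SHIVA livers for both. The log2 fold change of Fgf21 was -1.15 after normexp background correction. Without WT replicate 3, Acot1 and Fgf21 passed (adjusted p = 0.0140 each), and Cyp4a14 passed with array weights (0.0467) and with the replicate block (0.0369). Over all alternatives the adjusted p ran from 0.0140 to 0.501 for Acot1, from 0.0140 to 0.585 for Fgf21 and from 0.0369 to 0.452 for Cyp4a14. Of 10 genes that carbohydrate is known to raise, most of them lipogenic, 7 had lower and 3 higher means, with a median of -0.30. Me1, malic enzyme, fell by 1.07 on the log2 scale (adjusted p = 0.0455) and was the single call. That call held in 8 of 17 alternatives and was lost for 6 of the 7 mice when left out singly, with adjusted p between 0.0120 and 0.198 and a log2 fold change between -1.14 and -0.97. Txnip, a target of the same sugar-sensing factor as Pklr, was lower in every SHIVA liver (-1.08, adjusted p = 0.145), and Acly, which makes acetyl-CoA for lipid synthesis, was higher in every one (0.90, adjusted p = 0.206).

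**Figure D4:**
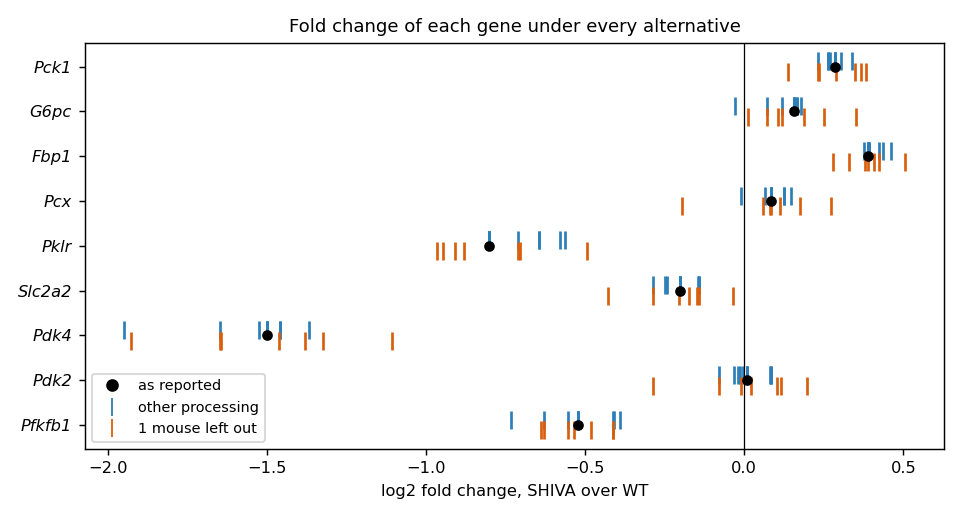
Log2 fold change of SHIVA over WT (x axis) of the 9 genes as reported (black) and under each alternative, with blue marks for other processing and orange marks for fits with 1 mouse left out. Pdk4 stays between -1.95 and -1.11, and the marks of G6pc, Pcx and Pdk2 lie on both sides of 0.

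The direction of Pck1, Fbp1, Slc2a2, Pklr, Pdk4 and Pfkfb1 was kept under all 17 alternatives, that of G6pc, Pcx and Pdk2 was not. Fbp1 ranged from 0.28 to 0.51, Pck1 from 0.14 to 0.38, Slc2a2 from -0.43 to -0.034, Pklr from -0.96 to -0.49 and Pfkfb1 from -0.73 to -0.39.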

How the data were processed

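Total RNA of 3 WT and 4 SHIVA livers was hybridized to single-colour Agilent arrays, 1 mouse per array. The authors deposited the scanner output, whose spot intensity values come from Feature Extraction 10.5.1.1 with trends over the slide removed and no normalization between arrays, and a table of log2 values, quantile normalized in R per the methods. On each array its values rank the spots as the uncorrected mean signal does. Here the processed intensities were turned into log2 values, and 120 to 163 outlier spots per array were left out. Quantile normalization was then applied to the log2 values across the 7 arrays (R 4.3.3, limma 3.58.1). Per array 44.5% to 48.7% of probes exceeded background. A gene was read by its brightest probe, and 20002 genes well above background on at least 3 arrays were tested with limma and Benjamini-Hochberg adjustment. Of 55681 probes, 26413 were named through RefSeq. The steps were tested on simulated data. Without a matching genome the exon a probe lies in was not analysed here.

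The 9 genes and all lists were chosen with earlier results of these data known. Named are the 9 genes, any other pathway gene that passed, the 3 largest differences of each list and the 3 genes most correlated with Pck1, Pklr and Pdk4. Besides these, Ppargc1a, Got1, Got2, Gpt and Khk were added later. The mice are separate samples, and whether they shared litters or cages is not given in the sources used here. Alternatives were 75th percentile scaling, the mean signal, normexp with an offset of 50, the deposited table, other filters on dim probes, the mean of probes, single probes, weights for arrays, a block for the replicate number, each mouse left out, and the methods' t-test.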

Additional observations from a re-analysis of the deposited data

Results flagged for a closer look

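Among 30 named genes the 4 SHIVA livers were searched for a liver far from the others by Dixon's criterion, which finds 1.5 such genes by chance, and 3 were found. Sik1 measured 7.43 in SHIVA replicate 2, above 6.55 to 6.67 in the other SHIVA livers. Hk3 measured 7.47 in SHIVA replicate 4, below 8.43 to 8.49 in the others. Ppp1r3b measured 13.76 in SHIVA replicate 3, below 14.25 to 14.31 in the others. None of the 9 genes was among them. The 3 WT livers were too few to be searched, and so the wide spread of Pcx and Pdk4 in WT livers stands outside this search.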

How the results depend on the processing

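Of the 9 genes, 0 passed under each alternative other than the one without WT replicate 3, where Pdk4 passed, so that with a mouse left out the count lay between 0 and 1. The count over all genes, 75, was less steady. It was 142 with the mean signal without background correction and 142 with the authors' table, 13 with no filter on dim probes, 229 with array weights and 0 with the methods' t-test (2299 at an unadjusted p under 0.05, against 2667 in limma), and leaving out single mice gave from 3 genes (without WT replicate 1) up to 416 (without WT replicate 3), with 8 without WT replicate 2, 7 without SHIVA replicate 1 and 13 without SHIVA replicate 3. Of the other pathway genes 1 passed with the mean signal and 1 with the authors' table (Pdp2 in both), which rank the spots of each array alike. With array weights 1 passed (Ppara), and between 0 and 2 passed with a mouse left out. The 2 were Hk3 and Ppp1r3c without WT replicate 3.

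Reversals were limited to genes with values near 0. G6pc was -0.029 with array weights. Pcx was -0.0090 with array weights and lay between -0.20 and 0.27 with a mouse left out. Pdk2 was -0.033 with 75th percentile scaling, -0.0027 with the mean of its probes, -0.018 with array weights, -0.014 by its other probe, and between -0.29 and 0.20 with a mouse left out. With the replicate number as a block over 6 mice, Pdk2 was -0.079 and 66 genes were called, against 55 without the block in the same mice. Over all genes tested, the deviations of WT and SHIVA livers with the same number correlated at -0.049, 0.013 and 0.24 for numbers 1, 2 and 3. Livers with unlike numbers were not compared in this way, so these values cannot decide whether the numbers pair the mice. The causes of these shifts were not tested. All probes of the 9 genes were well above background, whereas Pck2, Fbp2, Foxo3 and Pdpr were too dim for any value. The treatment of background still changed some sizes. Pklr was -0.65 with the mean signal and -0.58 after normexp background correction, against -0.80 as reported. Pfkfb1 was -0.41 and -0.39 in these settings, against -0.52.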
